A study of Rattus norvegicus with 6 samples.

Results

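Genes that low oxygen induces through hypoxia-inducible factor (HIF) were followed in rat liver, 10 in all: Egln1, Egln3, Vegfa, Adm, Ankrd37, Pdk1, Bnip3, Ddit4, Ndrg1 and P4ha1. They were chosen by name, with earlier results of these data known, and their probes were found through the RefSeq accession printed on the array. Of the 10 genes, 9 had at least 1 probe, out of 15284 genes named on the array, and they held 18 probes in all. Egln1 was not matched to a probe and was not analysed here. The livers came from 6 male Sprague-Dawley rats, 9 weeks old, an outbred stock. Anaesthesia before death was by isoflurane in 3 rats and by CO2/O2 in the other 3. All 6 rats had received corn oil at 5 mL/kg/day, for 3 days by the design text and for 9 weeks by the treatment protocol, a conflict within the labels. Isoflurane is a volatile anaesthetic, and CO2 mixed with oxygen is a gas that makes rodents unconscious. With no unanaesthetised rats among these samples, the data do not say which of the 2 agents moved a gene. Each liver's RNA was measured on 1 array in 1 colour.

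HIF is a pair of proteins, an oxygen-sensitive alpha subunit (Hif1a or Epas1) and a stable partner, Arnt. In oxygenated cells prolyl hydroxylases of the Egln family mark the alpha subunit, Vhl binds the mark and the subunit is destroyed. When oxygen falls the alpha subunit survives, and the pair binds short DNA motifs and switches on genes of glycolysis, vessel growth, mitochondrial clearance and matrix synthesis. The liver lies along a natural oxygen gradient from the portal to the central vein. The comparison asks whether transcripts of this response differ between livers taken after the 2 kinds of anaesthesia.

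The promoters of the 3 genes below are shown because Ankrd37 had the highest difference between the groups and Ddit4 and Bnip3 the lowest, and because each holds the core letters that HIF binds. Each line gives the 250 bases before the annotated transcription start, 5′ to 3′ on the gene's strand, from RefSeq on the build GRCr8. The array headers name the build rn4, so these positions were not joined to array positions. Capitals mark ACGTG or GCGTG on either strand, where whole within the line.
Ankrd37, chr16:53001257-53001506, plus strand: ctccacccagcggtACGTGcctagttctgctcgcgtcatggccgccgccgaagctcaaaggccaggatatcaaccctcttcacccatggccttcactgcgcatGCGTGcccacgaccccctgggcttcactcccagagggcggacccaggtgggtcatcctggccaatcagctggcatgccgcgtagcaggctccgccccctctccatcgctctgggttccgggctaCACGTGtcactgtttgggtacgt
Bnip3, chr1:203154963-203155212, minus strand: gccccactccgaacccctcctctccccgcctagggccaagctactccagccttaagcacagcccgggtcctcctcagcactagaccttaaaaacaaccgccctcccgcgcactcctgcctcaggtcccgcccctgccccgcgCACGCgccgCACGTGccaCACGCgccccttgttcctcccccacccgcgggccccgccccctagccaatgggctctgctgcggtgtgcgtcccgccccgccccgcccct
Ddit4, chr20:28437038-28437287, minus strand: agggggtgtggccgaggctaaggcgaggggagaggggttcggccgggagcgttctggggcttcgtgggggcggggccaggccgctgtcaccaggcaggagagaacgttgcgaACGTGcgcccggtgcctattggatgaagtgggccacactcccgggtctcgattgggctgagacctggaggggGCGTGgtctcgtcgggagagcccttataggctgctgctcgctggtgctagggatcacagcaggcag
Counted over 300 bases, which add 50 bases after the start, Ankrd37 had 4 matches to ACGTG and 1 to GCGTG. Bnip3 had 2 and 2, Ddit4 had 1 and 1, P4ha1 1 and 2, Pdk1 2 and 2, and Egln1 1 and 1. The palindrome CACGTG, an E-box, holds ACGTG on both strands and so counts as 2 of the matches in Ankrd37 and in Bnip3. Windows were found for 9 of the 10 genes, 10 windows in all because Vegfa had 2. At least 1 match to either core was present in 6 of the 10 windows, against 41.6% of all 33469 windows of this length. Adm, Egln3 and both Vegfa windows held neither core within these 300 bases. These matches are a description of the letters, and no binding was measured.

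No HIF target passed the test between isoflurane and CO2/O2 rats. All 9 genes with a probe were well above background on all 6 arrays at the probe that stands for them, and 17 of the 18 probes could be tested. Of the 9 genes, 0 passed the threshold in limma (Benjamini-Hochberg adjusted p of 0.05 over all 34637 tested probes), against 0% of all 10609 genes tested and 0.00866% of probes. At an unadjusted p under 0.05 there was 1 of the 9, Ankrd37, which was higher, against 7.58% of all genes (2.72% higher and 4.85% lower). Isoflurane and CO2/O2 values were fully apart for 1 of the 9, again Ankrd37, against 14.2% of all genes (6.01% higher and 8.16% lower). With 9 genes, a count of 1 is near both backgrounds. Of the log2 differences (isoflurane minus CO2/O2), 4 were positive and 5 negative, with 47.1% of all genes positive. Their median was -0.03, beside -0.01 over all genes tested. The 95% confidence interval lay within 2-fold in either direction for 7 of the 9 genes, the exceptions being Ankrd37 and Ddit4, and 90.5% of all genes had such an interval. The replicates are separate rats, and 3 arrays a group limit the precision.

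Values below are log2 intensities relative to the 75th percentile of the array, so that 0 is that percentile, and they are given for replicates 1, 2 and 3 in turn. Signals of different probes cannot be set against each other, because probes differ in brightness.

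**Figure D1:**
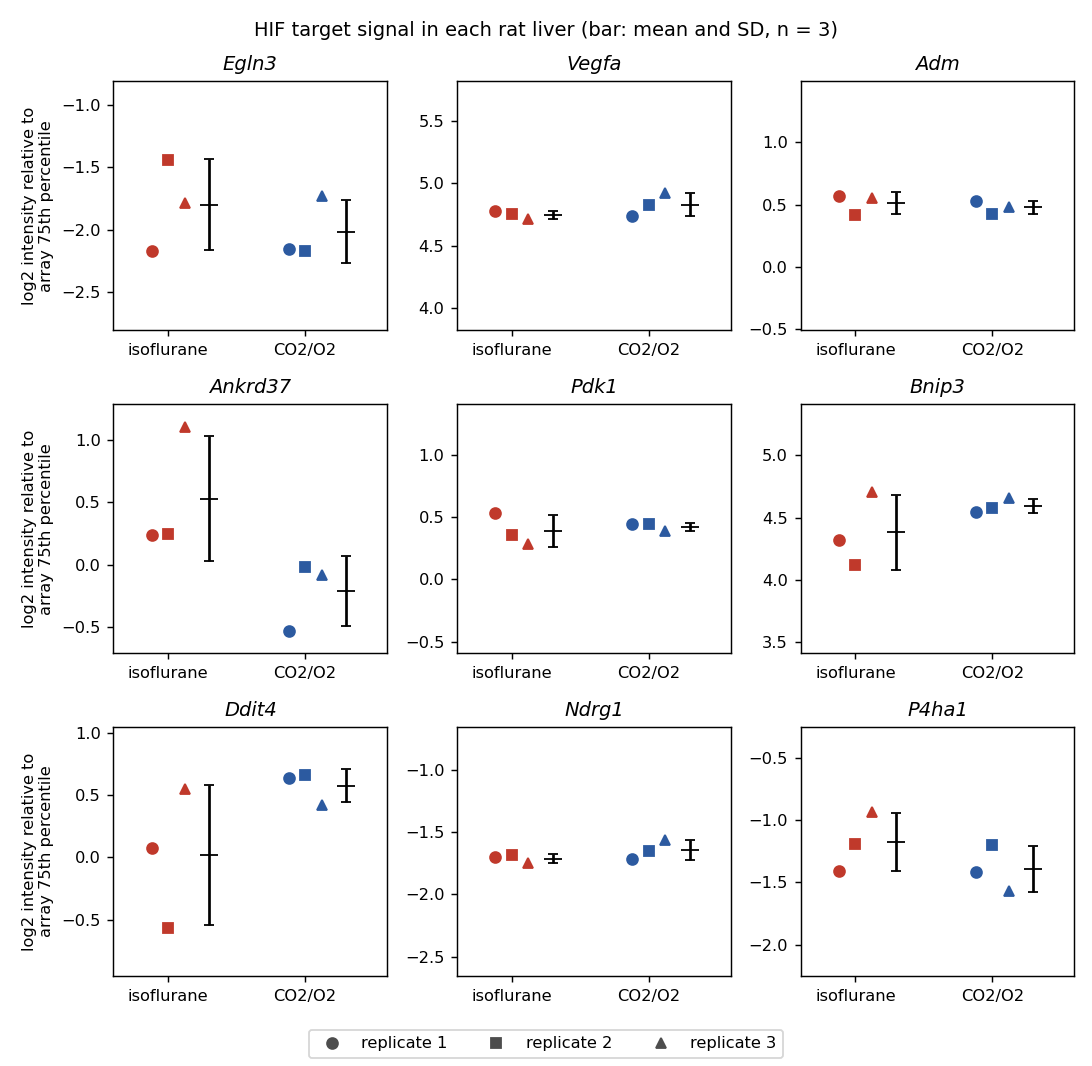
Each panel plots 1 gene, with log2 intensity relative to the array's 75th percentile on the vertical axis over the same span of 2 log2 units, isoflurane rats at left and CO2/O2 rats at right. Symbols are single rats and black bars are the mean and SD (n = 3); only in Ankrd37 do the groups stay apart, and Ddit4, Bnip3 and Ankrd37 spread more widely among isoflurane rats.

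Ankrd37, which encodes an ankyrin-repeat protein and is a direct HIF target, had the highest difference of the 9 genes. Its signal was 0.24, 0.24 and 1.11 in isoflurane rats, against -0.53, -0.02 and -0.08 in CO2/O2 rats. All 3 isoflurane rats lay above all 3 CO2/O2 rats, and isoflurane replicate 3 stood well above the other two. The means were 0.53 ± 0.499 in isoflurane rats and -0.21 ± 0.279 in CO2/O2 rats (SD, n = 3 each). The difference was 0.74 ± 0.274 (SE), or 1.67-fold, with a 95% interval of 0.08 to 1.40 and a limma adjusted p = 0.641 (unadjusted p = 0.0341). It did not pass the threshold. Without isoflurane replicate 3 the difference was 0.45. Ankrd37 has 1 probe, so it could not be compared with a further one.

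No marker gene of other liver cells passed the threshold in limma, but the signs of some lists ran one way, with 47.1% of all genes positive. All 11 of 11 Kupffer cell markers, those of the resident macrophages, had negative differences, and 5 of 5 red cell and 6 of 6 lymphocyte markers did too. Signs were mixed for stellate cell and fibroblast markers (4 of 6 positive), sinusoidal endothelial markers (2 of 5), hepatocyte markers (3 of 6) and cholangiocyte markers (1 of 5). The Kupffer list mean, relative to its mean over the 6 arrays, ran from -0.23 to -0.09 in isoflurane rats and from -0.04 to 0.35 in CO2/O2 rats. The lymphocyte mean ran from -0.51 to -0.02 and from 0.06 to 0.27. The red cell means overlapped, from -0.68 to 0.16 in isoflurane rats and from 0.01 to 0.47 in CO2/O2 rats. Signs are those of the probe that stands for a gene. Among other tested probes of Kupffer markers, that of Csf1r was positive (0.03) and the rest negative. On isoflurane replicate 3, Ankrd37, Bnip3 and P4ha1 each had their highest value. There the list means were -0.88 for neutrophil, -0.68 for red cell, -0.51 for lymphocyte and -0.25 for cholangiocyte markers. They were -0.23 for Kupffer cell and -0.16 for stellate cell and fibroblast markers. Each of these was the lowest of the 6 rats, unlike the hepatocyte (0.09) and sinusoidal endothelial (-0.01) means. The part of these cell types in the results for HIF targets was not tested. In bulk tissue, fewer cells of a type and less RNA per cell cannot be told apart.

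Ddit4 (REDD1), which restrains the growth kinase mTORC1 and is also induced by glucocorticoids and energy stress, had the lowest difference. Its signal was 0.07, -0.57 and 0.55 in isoflurane rats, against 0.64, 0.66 and 0.42 in CO2/O2 rats. The CO2/O2 rats were close together, while the isoflurane rats ranged from the lowest of all 6 to a value within the CO2/O2 range. The means were 0.02 ± 0.559 in isoflurane rats and 0.57 ± 0.133 in CO2/O2 rats (SD, n = 3 each). The difference was -0.55 ± 0.275 (SE; 95% interval -1.22 to 0.11, limma adjusted p = 0.698). Its other probes gave -0.50 and -0.50. Neither was well above background on isoflurane replicate 2, so both entered the test only through the CO2/O2 group. That filter favours a negative difference, so they are no separate support. All 3 probes had their lowest value in isoflurane replicate 2, the other probes near background there. Without isoflurane replicate 2 the difference of Ddit4 was -0.26, and without isoflurane replicate 3 it was -0.82.

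Bnip3, a mitochondrial outer membrane protein that marks mitochondria for removal by autophagy, varied among isoflurane rats in the same order as Ddit4. Its signal was 4.32, 4.12 and 4.71 in isoflurane rats, against 4.54, 4.58 and 4.65 in CO2/O2 rats. Isoflurane replicate 3 was the highest of the 6 and isoflurane replicates 1 and 2 the lowest. The difference was -0.21 ± 0.158 (SE; 95% interval -0.59 to 0.17, limma adjusted p = 0.792), and the other probe gave -0.06. Without isoflurane replicate 2 the difference was -0.08, and without isoflurane replicate 3 it was -0.37. With replicate 3 left out, Ankrd37 (higher), Bnip3 and Ddit4 (both lower) had an unadjusted p under 0.05 in limma. So did 790 of all 10632 genes tested. The main fit and every other alternative gave Ankrd37 alone or no gene of the 9. Without isoflurane replicate 3, 0 of the 9 genes passed the threshold.

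Egln3 (PHD3), a prolyl hydroxylase that marks HIF alpha subunits and is itself induced by HIF, had signals of -2.17, -1.44 and -1.79 in isoflurane rats, against -2.16, -2.17 and -1.73 in CO2/O2 rats. The groups overlapped, with isoflurane replicate 2 the highest of the 6 rats and isoflurane replicate 1 level with the lowest CO2/O2 rat. The difference was 0.22 ± 0.217 (SE; 95% interval -0.31 to 0.74, limma adjusted p = 0.844). P4ha1, the catalytic subunit of the enzyme that hydroxylates collagen prolines, had -1.41, -1.19 and -0.94 in isoflurane rats, against -1.41, -1.20 and -1.57 in CO2/O2 rats. Isoflurane replicate 3 was the highest, replicate 2 was level with the highest CO2/O2 rat, and replicate 1 lay within the CO2/O2 range. The difference was 0.22 ± 0.155 (SE; 95% interval -0.16 to 0.59, limma adjusted p = 0.780). Without isoflurane replicate 2 the difference of Egln3 was 0.04. For P4ha1 the difference was 0.096 without isoflurane replicate 3 and 0.33 without isoflurane replicate 1.

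The other 4 genes varied little between rats. Vegfa, the growth factor that drives vessel formation, had 4.78, 4.75 and 4.71 in isoflurane rats, against 4.74, 4.82 and 4.93 in CO2/O2 rats. The difference was -0.08 ± 0.0853 (SE; 95% interval -0.29 to 0.13, limma adjusted p = 0.851). Its other 5 probes, 2 of them designed to a second transcript accession, gave differences of -0.06, -0.05, -0.02, 0.01 and 0.04, so that all 6 probes lay close to 0. Adm, the precursor of the vasodilator peptide adrenomedullin, had 0.57, 0.41 and 0.55 in isoflurane rats, against 0.53, 0.43 and 0.48 in CO2/O2 rats. The groups overlapped, with a difference of 0.03 ± 0.0852 (SE; 95% interval -0.17 to 0.24, limma adjusted p = 0.949).

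Pdk1, the kinase that turns off pyruvate dehydrogenase and so holds pyruvate back from the mitochondria, had 0.53, 0.36 and 0.28 in isoflurane rats, against 0.44, 0.44 and 0.39 in CO2/O2 rats. The isoflurane rats lay on both sides of the CO2/O2 rats. The difference was -0.03 ± 0.0940 (SE; 95% interval -0.26 to 0.19, limma adjusted p = 0.959). Ndrg1, a stress-responsive gene named for its regulation by N-myc, had -1.70, -1.68 and -1.75 in isoflurane rats, against -1.72, -1.65 and -1.56 in CO2/O2 rats. The difference was -0.07 ± 0.0819 (SE; 95% interval -0.27 to 0.13, limma adjusted p = 0.873). Its second probe stayed near background on all 6 arrays and was not tested.

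**Figure D2:**
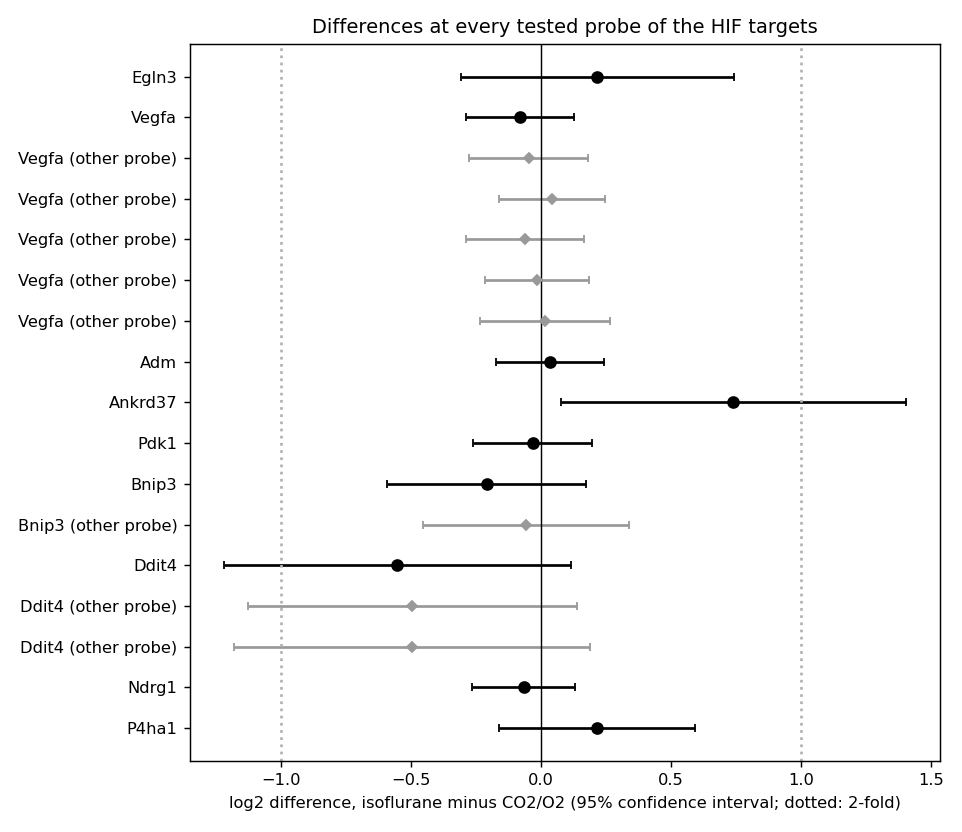
Each point is 1 of the 17 tested probes, with the log2 difference (isoflurane minus CO2/O2) and its 95% confidence interval on the horizontal axis; black circles are the probes that stand for a gene and grey diamonds its other probes. The interval of Ankrd37 runs from 0.08 to 1.40 without adjustment, all other intervals include 0, and the 6 Vegfa probes sit close to 0.

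The HIF targets differed in how far they ranged over the 6 livers. The range was 1.64 log2 units for Ankrd37 and 1.22 for Ddit4, above those of 95.8% and 92.1% of all genes tested. It was 0.73 for Egln3, 0.63 for P4ha1 and 0.59 for Bnip3. It was 0.25 or less for Pdk1, Vegfa, Ndrg1 and Adm, with the median of all genes at 0.41. The SD was wider among isoflurane than among CO2/O2 rats for 7 of the 9 genes, and for 60.9% of all genes. Only the isoflurane arrays lay in both rows of the slide, so any slide row effect would add to their SD alone. The part of slide row in these SDs was not tested.

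No rat had the whole set raised or lowered. Relative to each gene's own mean, the 9 genes averaged -0.06, -0.08 and 0.19 in isoflurane rats and -0.08, 0.01 and 0.02 in CO2/O2 rats. The 0.19 of isoflurane replicate 3 joined Ankrd37 at 0.95, P4ha1 at 0.35, Ddit4 at 0.25 and Bnip3 at 0.22 to Pdk1, Vegfa and Ndrg1, which had their lowest value of the 6 in that same rat. Isoflurane replicate 2 had the lowest Ddit4 (-0.86) and Bnip3 (-0.37) and the highest Egln3 (0.47).

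**Figure D3:**
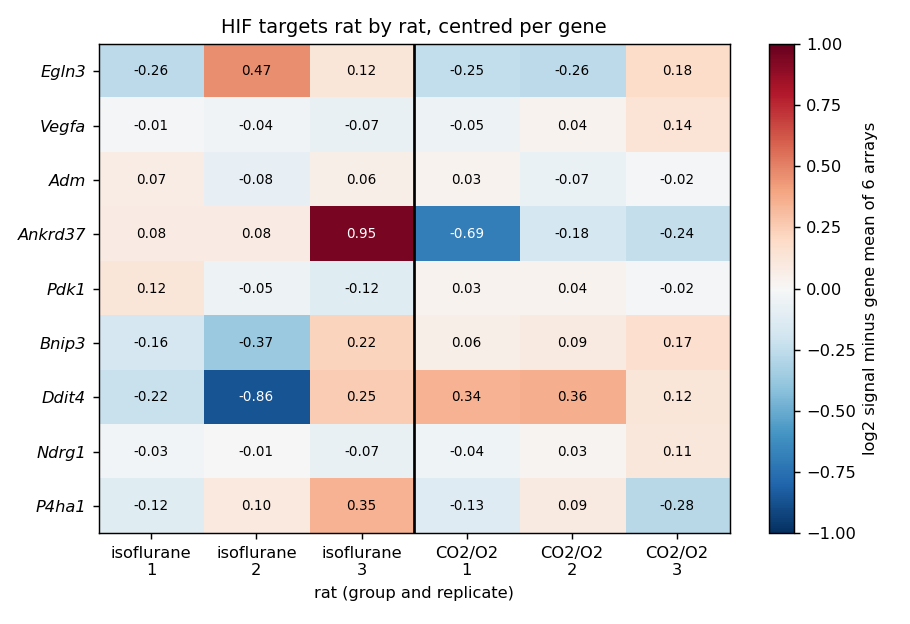
Rows are the 9 genes and columns the 6 rats, isoflurane at left, with colour and printed numbers giving the log2 signal less the gene's mean over the 6 arrays. Isoflurane replicate 3 is high for Ankrd37 (0.95), isoflurane replicate 2 is low for Ddit4 (-0.86), and no column is of 1 colour throughout.

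The genes with the most similar pattern were sought for the 2 most variable targets, as the smallest root mean square difference between centred values over the 6 arrays, among 10597 genes with a value on every array. Nearest to Ankrd37 were Camk2n1 at 0.157 log2 units, Sh3bp4 at 0.168 and Nrg4 at 0.175. Nearest to Ddit4 were Slc22a5 at 0.10, Myh14 at 0.107 and Tsc22d3 at 0.129. In limma Camk2n1 had a difference of 0.72 (adjusted p = 0.682) and Tsc22d3 of -0.61 (adjusted p = 0.712). Genes picked for a like pattern have a like difference by that choice, so these values are no separate result.

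None of the oxygen-sensing machinery upstream of these targets passed the test. Of 15 subunits and regulators listed, 13 were measured and tested, 7 with positive and 6 with negative differences, and 0 passed the threshold in limma (0 at an unadjusted p under 0.05), with a median of 0.0012. Among the alpha subunits the difference was -0.05 ± 0.0806 (SE) for Hif1a (other probes -0.03 and 0.04) and 0.16 ± 0.105 for Epas1 (HIF-2 alpha). Hif3a had -0.10 ± 0.152, and its other probe gave 0.28 ± 0.232. Arnt2, a second partner subunit, had 0.21 ± 0.113. Arnt, the main partner subunit, had 0.64 ± 0.658. Its signal was -3.99, -2.0 and -4.74 in isoflurane rats, against -4.22, -4.12 and -4.32 in CO2/O2 rats. Isoflurane replicate 2 stood far above the other 5 rats, and Arnt was well above background on 2 of 3 isoflurane arrays.

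Among the genes whose proteins hydroxylate HIF alpha or help destroy it, Egln2 (PHD1) had a difference of -0.03 ± 0.110 (SE). Hif1an, the asparaginyl hydroxylase, had 0.0023 ± 0.0849. The ubiquitin ligase genes had -0.06 ± 0.0898 (Vhl), -0.11 ± 0.0740 (Elob), 0.0059 ± 0.0782 (Eloc) and -0.04 ± 0.0786 (Rbx1). The other probes of these ligase genes lay between -0.10 (Elob) and 0.06 (Vhl). The coactivator Crebbp had 0.0012 ± 0.108, with 0.18 at its other probe. Cited2, which competes with HIF for such coactivators, had 0.32 ± 0.182, and its other probes gave 0.02 ± 0.227 and 0.85 ± 0.615.

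Other HIF targets, in 6 lists by function, gave no call either. With the subunits and regulators there were 82 genes in 7 lists, of which 77 had a probe and 68 were tested; 36 had positive and 32 negative differences, with a median of 0.0041. Of these 68 genes, 0 passed the threshold in limma, 5 had an unadjusted p under 0.05 (7.35%, beside 7.58% of all genes), and the groups did not overlap for 8 (11.8%, beside 14.2%). Genes such as Epo, Hk2 and Slc2a3 were not well above background on all 3 arrays of either group and were not tested.

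Glucose uptake and glycolysis genes had a median difference of 0.05, with 12 of 18 positive and 0 past the threshold. Ak4, a mitochondrial adenylate kinase, had 0.50 ± 0.231 (SE, limma adjusted p = 0.683), Pfkl, the liver phosphofructokinase, 0.18 ± 0.0985 and Pfkfb3, which makes the phosphofructokinase activator, 0.23 ± 0.134. The other Pfkl probes gave 0.17 and 0.28. Genes of angiogenesis and vessel tone had a median of 0.09, with 5 of 8 positive and 0 past the threshold. Nos2, the inducible nitric oxide synthase, had 0.38 ± 0.0979 (limma adjusted p = 0.565). Its signal was -3.86, -4.11 and -3.90 in isoflurane rats, against -4.39, -4.33 and -4.29 in CO2/O2 rats. All 3 isoflurane rats were above the CO2/O2 rats, but it was well above background on 2 of 3 isoflurane arrays. Nos3, the endothelial enzyme, had 0.75 ± 0.425 and Angptl4, an inhibitor of lipoprotein lipase, -0.45 ± 0.250 (other probe -0.29). Isoflurane replicate 3 stood far above the other rats for Nos3, at -0.04, against -1.48 and -1.69 in the other isoflurane rats and -1.94 to -1.68 in CO2/O2 rats.

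Genes of erythropoiesis, iron and haem had a median of -0.16, with 5 of 7 negative and 0 past the threshold. The iron exporter Slc40a1 had -0.25 ± 0.143 (SE), the erythropoietin receptor Epor -0.24 ± 0.180 and haem oxygenase Hmox1 -0.19 ± 0.158. The other Slc40a1 probes gave -0.35 and -0.32. Red cell markers were also negative in 5 of 5 in these livers, with a median of -0.37, and their part in this list was not tested. Of 5 matrix genes, 3 were positive, with a median of 0.08 and 0 past the threshold. The lysyl hydroxylase Plod1 had 0.52 ± 0.206 (limma adjusted p = 0.655), with -0.50 ± 0.850 at its other probe. Loxl4, a lysyl oxidase, had -0.54 ± 0.357 and P4ha2, an isoform of the P4ha1 enzyme, 0.08 ± 0.123. Other probes gave -0.59 and -0.48 for Loxl4 and 0.21 for P4ha2. Without CO2/O2 replicate 3 the median of the matrix genes was -0.073.

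Genes of pH, mitochondria, autophagy and survival had a median of 0.04, with 4 of 7 positive and 0 past the threshold. Car9, a carbonic anhydrase often used as a mark of hypoxia, had signals of -2.73, -2.81 and -2.90 in isoflurane rats, against -3.00, -3.11 and -3.10 in CO2/O2 rats. The groups did not overlap, at a difference of 0.26 ± 0.0864 (SE, limma adjusted p = 0.612). Cox4i2, a subunit of cytochrome oxidase, had -0.26 ± 0.149, but its other probe gave 0.019 ± 0.0811. Mxi1, a Myc antagonist, had 0.12 ± 0.0925, and its other probes gave 0.16, 0.05 and -0.08. Bnip3l, the close relative of Bnip3, had 0.04 ± 0.0828, and was named after its value was seen.

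Genes of regulation and growth had a median of -0.13, with 7 of 10 negative and 0 past the threshold. Wsb1, a ubiquitin ligase subunit, had 3.47, 2.84 and 2.57 in isoflurane rats, against 3.54, 4.09 and 4.12 in CO2/O2 rats. Every isoflurane rat was below every CO2/O2 rat, with a difference of -0.96 ± 0.270 (SE, limma adjusted p = 0.572), and the other probe gave -0.97. Igfbp3, a carrier of insulin-like growth factors, had -0.52 ± 0.129 (limma adjusted p = 0.560), with -0.36 and -0.41 at its other probes. Insig2, a regulator of sterol synthesis, had -0.28 ± 0.182.

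**Figure D4:**
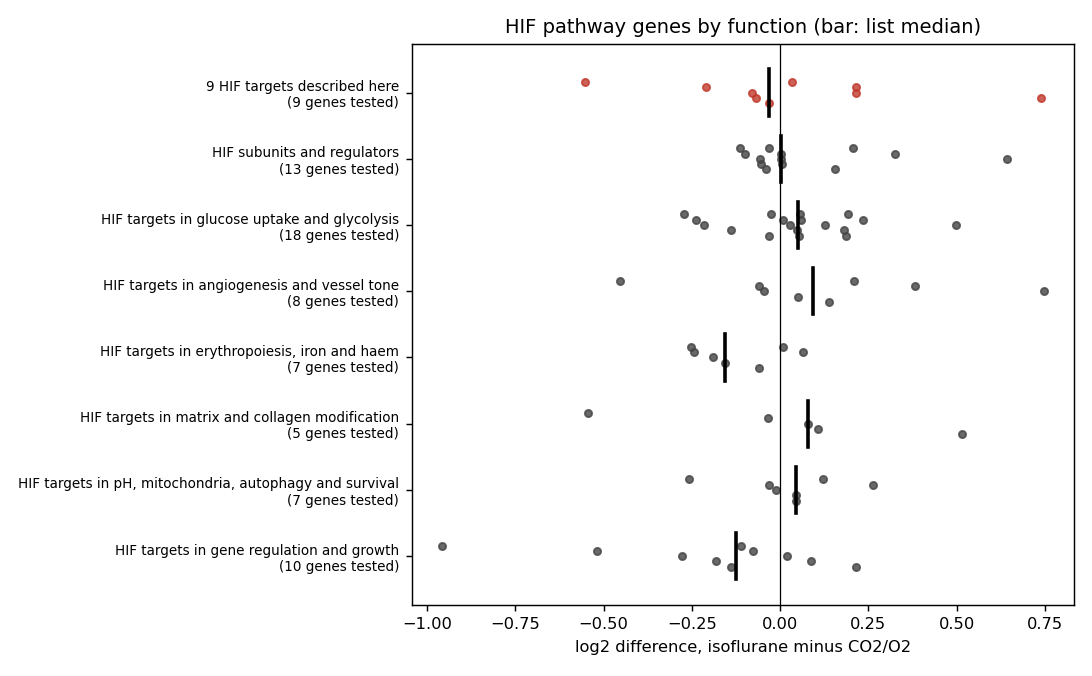
Each point is 1 tested gene, with its log2 difference (isoflurane minus CO2/O2) on the horizontal axis and the lists down the page; the vertical bar is the list median. The medians lie between -0.16 and 0.09, and points of every list fall on both sides of 0.

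Liver identity and array quality were as follows. All 6 hepatocyte markers were well above background on all 6 arrays, with a median difference of -0.03 and values from -0.28 (Cyp2e1) to 0.38 (Hnf4a). Kupffer cell markers had a median of -0.33 (Vsig4 -0.62, Cd163 -0.05), lymphocyte markers -0.39 (Gzmb -0.77, Nkg7 -0.02), cholangiocyte markers -0.33 (Spp1 -1.19, Epcam 0.08) and both neutrophil markers tested were negative (S100a9 -0.56, S100a8 -0.44). Sinusoidal endothelial markers had -0.09 (Eng 0.30, Tek -0.14) and stellate cell and fibroblast markers 0.01 (Reln 0.10, Pdgfrb -0.31). Krt7, whose -0.33 was the cholangiocyte median, and Tek were each well above background on 1 of 3 isoflurane arrays. Both entered the test only through the CO2/O2 group, which favours a negative difference. The red cell list ran from -0.74 (Slc4a1) to -0.19 (Ahsp). None of these markers passed the threshold in limma. An unadjusted p under 0.05 was found for 6 of the 11 Kupffer cell markers, 3 of the 6 lymphocyte markers, 2 of the 5 red cell markers and 1 of the 5 cholangiocyte markers, all lower, beside 7.58% of all genes (4.85% lower). The share of probes above background was 53.4% to 60.6% in isoflurane rats and 56.9% to 62.3% in CO2/O2 rats, and 0 spots were saturated.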

How the data were processed

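Liver RNA of 6 rats was measured on 1-colour Agilent arrays, 1 rat per array. Images were read with Agilent Feature Extraction 10.7, per the submitters' processing notes. The deposited spot values are intensity values on a linear scale, corrected for background by that software and not scaled between arrays, per the file headers. The deposited value table holds a ratio on a linear scale, found here to be the intensity divided by 1 number per array, close to its 75th percentile, with probes left uncentred. Its origin was not stated in the labels or headers.

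The 75th percentile of each array, over 61657 non-control probes, was taken from its log2 intensity values. The 177 spots that the scanner software marked as outliers were left out, which did not touch the probe standing for any HIF target. Probes entered the test if all 3 arrays of either group, or of both, called them well above background. Differences, standard errors and 95% intervals were computed by limma 3.58.1 under R 4.3.3 (lmFit, then eBayes, no covariate), with Benjamini-Hochberg adjustment over all 34637 tested probes. The tested probe of highest mean signal stood for a gene with several. Accessions were matched without version to RefSeq genes of GRCr8; 27460 probes matched 1 gene and 34197 none. The fit was tested on simulated data with independent arrays and no slide row effect, which is no support for the absence of calls. Tables and plots used Python 3.11.15, pandas 2.3.3, numpy 2.4.6 and matplotlib 3.10.9.

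The genes and lists were chosen with earlier results of these data known. Named were all 10 targets, every measured subunit and regulator, up to 3 genes with the smallest p of each other list, the markers with the highest and lowest difference, and the 3 genes nearest in pattern to the 2 most variable targets. Alternatives were normexp (offset 50, on the median signal), median centring, quantile normalization, the deposited ratio table, 2 other filters, outlier spots kept, blocks for the replicate number or for the slide row, averaging all probes of a gene, a trended and robust eBayes, and each array left out. Slide and scan time were the same for all 6 arrays and could not serve as blocks. Slide row 1 held all the CO2/O2 arrays and isoflurane replicate 1, and row 2 held isoflurane replicates 2 and 3. Slide row and anaesthesia therefore cannot be fully told apart.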

Additional observations from a re-analysis of the deposited data

How the results depend on the processing

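Under all 17 alternatives, 0 of the 9 HIF targets and 0 genes of the 7 lists passed the threshold, with adjusted p of Ankrd37 from 0.431 to 1.00. Ankrd37, Ddit4, Bnip3, Ndrg1 and Vegfa kept the sign of their difference in all of them. Signs turned for Adm with median centring (-0.025). Blocking on the slide row turned Egln3 (-0.16), P4ha1 (-0.012) and Pdk1 (0.11). That block leaves only isoflurane replicate 1 to compare with CO2/O2 rats and gave 0.45 for Ankrd37. Dropping 1 array at a time, Pdk1 ran from -0.10 to 0.021, Ankrd37 from 0.45 to 0.88, Ddit4 from -0.82 to -0.26, Bnip3 from -0.37 to -0.08, Egln3 from 0.04 to 0.40, P4ha1 from 0.096 to 0.33 and the median of the 9 genes from -0.07 to 0.01. With 1 array dropped, the list medians ran from -0.073 to 0.16 for matrix genes (lowest without CO2/O2 replicate 3), 0.04 to 0.20 for angiogenesis (highest without isoflurane replicate 3), -0.14 to -0.087 for erythropoiesis (highest without isoflurane replicate 3) and -0.19 to -0.047 for regulation and growth (highest without CO2/O2 replicate 3). Under the slide row block they were 0.27 for matrix, 0.28 for angiogenesis, -0.075 for erythropoiesis, -0.0031 for glycolysis and -0.0086 for pH and mitochondria. Median centring gave -0.058 for subunits and regulators, 0.035 for angiogenesis, -0.22 for erythropoiesis, -0.0079 for glycolysis and -0.016 for pH and mitochondria. Ankrd37 lost its unadjusted p under 0.05 when CO2/O2 replicate 1 or 3 was dropped, and under the slide row block. The count of all genes past the threshold, 0 in the report, was 1 under the slide row block. Dropping 1 array gave 0 to 8 genes, with 8 when isoflurane replicate 1 was dropped and 4 when it was CO2/O2 replicate 3. Without isoflurane replicate 1 the slide rows match the groups exactly, so row and anaesthesia cannot be told apart in that setting. Among the settings with 1 array dropped, it also gave the highest differences of Ankrd37, Egln3 and P4ha1. The count of probes, 3 in the report, was 5 with normexp, 5 with the trended and robust eBayes, and 1 when dim probes were kept. Dropping 1 array gave 1 to 20 probes: CO2/O2 replicate 3 gave 20, isoflurane replicate 1 gave 17, isoflurane replicate 2 gave 5, and both CO2/O2 replicate 1 and isoflurane replicate 3 gave 1. The cause of these moves was not tested. With the replicate block the count of probes was 0 and Ankrd37 had 0.74 (adjusted p = 0.541). Same-numbered rats had deviations correlated at 0.114, 0.0213 and 0.0600, so the numbers were not taken to pair them, though each isoflurane rat correlated best with its own number. Median centring moved the median of all genes by -0.06. Dim probes, such as those of Arnt and Nos2, limit what can be read from their lists.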

Other observations

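Igfbp1, a carrier of insulin-like growth factors made by the liver and induced both by HIF and in fasting, varied most between rats among the 68 pathway genes. Its signal was 2.83, 1.39 and 5.23 in isoflurane rats, against 1.54, 4.09 and 4.38 in CO2/O2 rats. Rats with high and low values occurred in both groups, and the difference was -0.18 ± 1.15 (SE, limma adjusted p = 0.984). Tfrc, the transferrin receptor, was likewise spread among isoflurane rats, with an SD of 0.626, against 0.133 among CO2/O2 rats (n = 3 each), and a difference of -0.16 ± 0.304. The choice of Igfbp1 and Tfrc was made with their values in view.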
